A study of Mus musculus with 8 samples.

Results

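Vascular endothelial growth factors (VEGF) and angiopoietins are 2 families of secreted ligands that act on receptor tyrosine kinases of endothelial cells. Their expression was measured by RNA-seq in the heart ventricles of mouse embryos at embryonic day 9.5 (E9.5). The 10 genes examined were picked from the table by symbol. They comprise 5 ligands (*Vegfa*, *Vegfb*, *Vegfc*, *Angpt1* and *Angpt2*) and 5 receptors (*Kdr*, *Flt1*, *Flt4*, *Tek* and *Tie1*), out of 53465 genes in the deposited table. All 10 had enough counts to be among the 14451 genes tested. Of 8 samples, 4 were labelled WT and 4 Nrg-1flox;Tie2-Cre. In the latter, a conditional *Nrg1* allele (written Nrg-1flox in the labels) is recombined by Cre under the control of the *Tie2* promoter, which acts in endothelial cells, endocardium included, and in the blood lineage. *Tie2* is another name of *Tek*, one of the 10 genes, so the driver and a measured receptor share a promoter. The labels name no further allele for WT, and whether those embryos carried a floxed allele or Cre, and whether embryos were pooled, is not given in the sources used here. The presence of Cre and the loss of *Nrg1* therefore cannot be told apart.

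VEGF-A binds KDR (VEGFR2), the main signalling receptor of early endothelium, and FLT1 (VEGFR1), which binds it tightly and can act as a decoy. VEGF-B binds FLT1, whereas VEGF-C acts through FLT4 (VEGFR3) and KDR. Angiopoietin 1 activates the receptor TEK, angiopoietin 2 competes with it in many settings, and TIE1 is a partner that pairs with TEK. In the embryonic heart, the myocardium is a source of *Angpt1* and *Vegfa*, and the endocardium that lines it carries the receptors, so the comparison of WT with Nrg-1flox;Tie2-Cre asks how ligands made by the myocardium stand against receptors of the endothelium.

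*Nrg1*, the targeted gene, had from 59 to 72 counts in Nrg-1flox;Tie2-Cre and from 121 to 173 in WT, a log2 fold change of -1.07 (SE 0.14, edgeR adjusted p = 0.00268). Total counts ranged from 11852372 to 14360323 per sample. Cardiomyocyte markers summed to at least 35250 CPM (counts scaled to the size of the library) and endothelial markers to at least 641.7 CPM in every sample, as the tissue label implies. Mutant replicate 1 stood apart from the other mutant samples: genes induced by low oxygen were high there, and hemoglobin genes took 6.26% of its counts. The hemoglobin share was 1.93% to 3.89% in mutant replicates 2 to 4, and WT samples had 0.671% to 0.799%. Results are therefore given with and without that sample. These are bulk samples, in which fewer cells of a type and less RNA per cell cannot be told apart.

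Both *Angpt1* and its receptor *Tek* were lower in Nrg-1flox;Tie2-Cre, by 23.5% and 20.9% on the fitted scale. They were the 2 of 10 genes with an edgeR adjusted p under 0.05, and the other 8 did not pass. Over all genes tested, 3.50% were called lower and 5.11% higher. The calls of *Angpt1* and *Tek* were lost with the replicate number as a block and in 6 of the 8 fits that left out 1 sample. The median log2 fold change was -0.26 over the 10 genes and -0.0014 over all genes tested, and 7 of the 10 values were negative. The plot of CPM by sample shows every value.

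**Figure D1:**
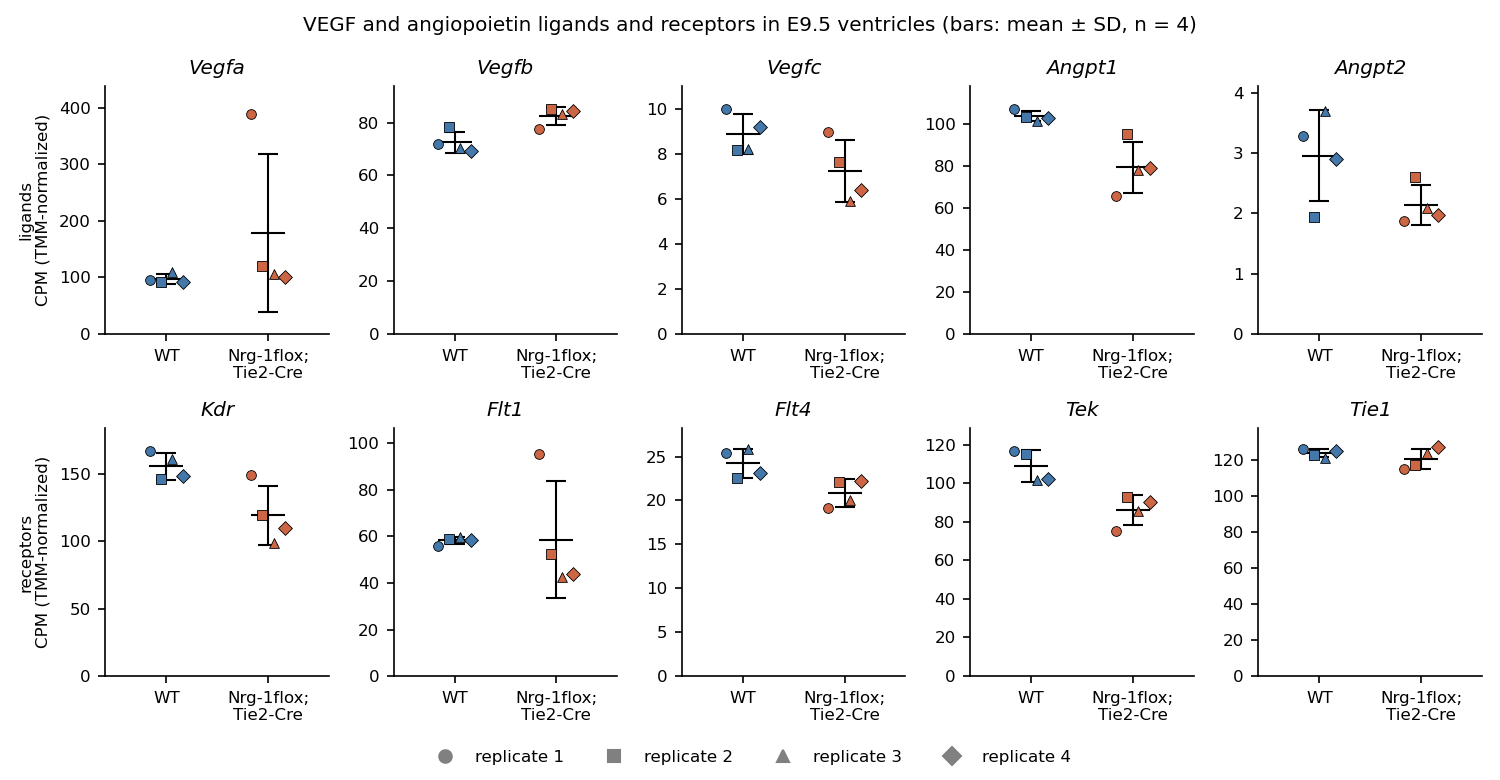
Each panel shows 1 gene in CPM after TMM normalization, with 4 WT samples in blue and 4 Nrg-1flox;Tie2-Cre samples in orange, a marker shape per replicate number, and bars for the mean and SD. The mutant values of *Angpt1*, *Tek* and *Flt4* lie below every WT value, and mutant replicate 1 (circle) is far above the others for *Vegfa* and *Flt1*.

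Before the comparison of genotypes, the genes were ordered by level. Levels of different genes were compared as CPM per kilobase of the transcript with the longest coding sequence. In WT, *Vegfb* (56.6 ± 3.17, SD, n = 4) and *Vegfa* (49.2 ± 4.35) were the highest on this scale, with ranges that overlapped. *Tie1* (30.3 ± 0.539) followed, then *Kdr* (26.2 ± 1.69), *Angpt1* (24.4 ± 0.577) and *Tek* (23.4 ± 1.76). *Kdr* overlapped with *Angpt1*, and *Angpt1* with *Tek*. *Flt1* came next at 8.45 ± 0.238, then *Flt4* at 3.87 ± 0.257 and *Vegfc* at 3.63 ± 0.358, which overlapped. *Angpt2* was the lowest at 0.83 ± 0.212. In Nrg-1flox;Tie2-Cre the order was the same except that *Vegfa* and *Vegfb*, again overlapping, changed places. That exchange rested on mutant replicate 1: over the other 3 mutant samples *Vegfb* (65.7 ± 0.761, SD, n = 3) was above *Vegfa* (55.2 ± 5.18, SD, n = 3), as in WT, and *Kdr* (18.4 ± 1.77) moved from place 4 to place 6, behind *Angpt1* (19.7 ± 2.24) and *Tek* (19.3 ± 0.784), with overlap. With the union of all annotated exons as the length, *Vegfa* was in place 4 in WT at 22.7 CPM per kilobase and *Kdr* in place 6 at 17.2, so the place of genes with several long transcripts rests on the choice of length.

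**Figure D2:**
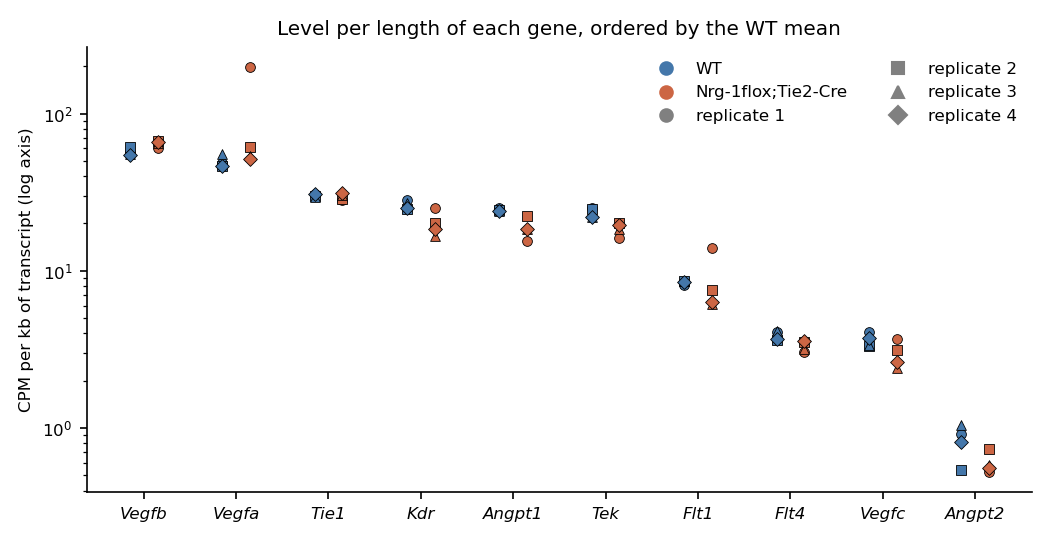
The vertical axis gives CPM per kilobase of the transcript with the longest coding sequence on a log scale, for each gene in order of its WT mean, with blue for WT, orange for Nrg-1flox;Tie2-Cre and a marker shape per replicate number. Levels run from 56.6 for *Vegfb* down to 0.83 for *Angpt2* in the WT means.

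*Angpt1* encodes the agonist of TEK and is needed for the attachment of endocardium to myocardium and for trabeculation. The gene occupies chr15:42424723-42676977 (GRCm38, minus strand), and the transcript used for its length has 9 exons. Its levels were 107.2, 103.4, 101.5 and 102.9 CPM in WT replicates 1 to 4 and 65.6, 95.0, 78.0 and 79.0 CPM in Nrg-1flox;Tie2-Cre replicates 1 to 4. Every mutant sample was below every WT sample, with replicate 1 the lowest and replicate 2 the nearest to WT. Such a separation, with all mutant values lower, was found for 9.45% of all genes tested (9.52% with all mutant values higher, 19.0% in either direction). WT samples were close together (103.8 ± 2.46 CPM, SD, n = 4) and mutant samples more spread (79.4 ± 12 CPM, SD, n = 4). The log2 fold change was -0.39 (SE 0.097, 95% interval -0.60 to -0.17, edgeR adjusted p = 0.0382), and -0.30 without mutant replicate 1 (adjusted p = 0.0156).

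*Tek* encodes the receptor of both angiopoietins. The gene occupies chr4:94739289-94874976 (plus strand) and has 23 exons in the transcript used. WT samples had 116.9, 115.1, 101.7 and 102.1 CPM, and Nrg-1flox;Tie2-Cre samples 75.5, 93.0, 85.8 and 90.3 CPM. Again no mutant value reached the WT range, and replicate 1 was the lowest. The log2 fold change was -0.34 (SE 0.081, 95% interval -0.52 to -0.16, edgeR adjusted p = 0.031), and -0.28 without mutant replicate 1 (adjusted p = 0.0156). *Angpt1* (log2 fold change -0.47 to -0.30, adjusted p from 0.00683 to 0.116) and *Tek* (-0.37 to -0.28, adjusted p from 0.0156 to 0.107) each lost it in 6 of the 8 fits that left out 1 sample, namely each WT replicate and mutant replicates 3 and 4. Neither was called with the replicate number as a block, where 1.51% of genes tested were called lower.

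*Tie1*, the partner receptor, did not pass. Located at chr4:118471191-118490061 (minus strand), it was measured at 126.3, 122.9, 121.3 and 125.0 CPM in WT and 114.9, 117.4, 123.6 and 126.9 CPM in the mutant. The ranges overlapped, and the log2 fold change of -0.04 had a 95% interval of -0.16 to 0.08 (edgeR adjusted p = 0.705). This interval lies above the fitted value of *Tek*. *Angpt2*, which encodes the second angiopoietin and is made by endothelial cells, had only 22 to 45 counts per sample. Its levels were 3.28, 1.93, 3.70 and 2.91 CPM in WT and 1.87, 2.61, 2.09 and 1.98 CPM in the mutant. WT replicate 2 fell among the mutant values. At this depth the log2 fold change of -0.46 had a 95% interval of -0.98 to 0.06 (adjusted p = 0.255), so a change of the size seen in *Angpt1* could not be told from none.

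The region before the transcription start is shown for *Tek*, whose promoter also drives Cre in the mutant, and for *Tie1*, its partner, since their values differed in these samples. RefSeq (GRCm38.p6) gave starts for 8 of the 10 genes. Each run holds the 250 bases before the start, 5′ to 3′ on the strand of the gene. Capitals mark the ETS core GGAA and the hypoxia response core, ACGTG or GCGTG, each on either strand.
Tek promoter, chr4:94739039-94739288, plus strand: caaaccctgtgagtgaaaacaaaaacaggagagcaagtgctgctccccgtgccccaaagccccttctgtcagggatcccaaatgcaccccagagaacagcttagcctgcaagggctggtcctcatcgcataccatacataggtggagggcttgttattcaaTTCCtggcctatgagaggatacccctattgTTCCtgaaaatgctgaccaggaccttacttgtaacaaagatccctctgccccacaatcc
Tie1 promoter, chr4:118489850-118490099, minus strand: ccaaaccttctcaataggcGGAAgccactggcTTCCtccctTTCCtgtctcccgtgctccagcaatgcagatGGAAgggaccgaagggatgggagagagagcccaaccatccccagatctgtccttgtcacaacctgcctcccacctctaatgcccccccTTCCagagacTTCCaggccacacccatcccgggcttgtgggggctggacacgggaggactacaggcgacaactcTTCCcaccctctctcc
GGAA matched 2 times in the *Tek* window and 7 times in the *Tie1* window. These letters occur in 93.4% of 32851 promoter windows of this length, with a median of 3 matches. The hypoxia response core, found in 38.6% of all windows, was in neither. Such matches describe the letters of these windows alone.

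Of the VEGF ligands, *Vegfa* was far higher in a single mutant sample than in the others. *Vegfa* (chr17:46016993-46032369, minus strand) had 95.2, 91.7, 109.7 and 91.7 CPM in WT. The mutant samples had 388.5, 120.3, 105.5 and 100.7 CPM. Replicate 1 was 3.57 times the mean of the other 3, of which 2 lay within the WT range. The log2 fold change over all samples was 0.88 (SE 0.40, edgeR adjusted p = 0.207) and fell to 0.17 (SE 0.08, adjusted p = 0.179) without that sample.

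*Vegfb*, whose product binds FLT1, did not pass in the main edgeR fit of all samples. Scaled to cardiomyocyte markers, *Vegfb* passed at 0.24 (edgeR adjusted p = 0.0498). Its levels were 71.8, 78.4, 70.4 and 69.4 CPM in WT and 77.4, 85.1, 83.2 and 84.4 CPM in the mutant, and mutant replicate 1 overlapped with WT replicate 2. The log2 fold change was 0.19 (SE 0.061, edgeR adjusted p = 0.0931), and 0.22 without mutant replicate 1 (adjusted p = 0.0212). *Vegfc*, the ligand of FLT4, was low, with 10.01, 8.17, 8.22 and 9.19 CPM in WT and 8.99, 7.67, 5.90 and 6.43 CPM in the mutant. Replicate 1 of the mutant lay inside the WT range, and the log2 fold change of -0.30 (SE 0.15, adjusted p = 0.261) did not pass.

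None of the 3 VEGF receptors passed in the main edgeR fit of all samples, and mutant replicate 1 had the highest mutant value of *Kdr* and *Flt1*. *Kdr* (chr5:75932827-75978458, minus strand, 30 exons) had 166.7, 146.0, 160.8 and 148.1 CPM in WT and 149.0, 119.2, 98.3 and 109.8 CPM in Nrg-1flox;Tie2-Cre. Only mutant replicate 1 reached the WT range. The log2 fold change was -0.38 (SE 0.12, edgeR adjusted p = 0.0681) over all samples. Without mutant replicate 1 it was -0.51 (SE 0.073, adjusted p = 0.00162). With all samples, *Kdr* passed in 3 of 10 other settings, among them DESeq2 (-0.38, adjusted p = 0.0201), where 4.62% of genes tested were called lower, and libraries scaled to endothelial markers (-0.43, adjusted p = 0.0347), where 4.53% were. Scaled to cardiomyocyte markers it was at -0.31 (adjusted p = 0.282), and the adjusted p was 0.111 to 0.183 without any 1 WT replicate.

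For *Flt1* the fitted difference was close to 0 with all samples, and its value moved most without the same sample. *Flt1* is on the same chromosome and strand as *Kdr* (chr5:147561604-147726011). WT samples were within a narrow range of 56.0, 59.1, 59.7 and 58.3 CPM. Mutant samples had 95.6, 52.4, 42.7 and 43.8 CPM, so that 1 lay above all WT samples and 3 below. The log2 fold change was 0.0052 (SE 0.23, edgeR adjusted p = 0.993) with all samples and -0.33 (SE 0.071, adjusted p = 0.0115) without replicate 1. *Flt4* had 25.4, 22.6, 25.8 and 23.1 CPM in WT and 19.1, 22.2, 20 and 22.3 CPM in the mutant. All mutant values were lower, by a small margin, and the log2 fold change of -0.21 (SE 0.083, 95% interval -0.40 to -0.03, adjusted p = 0.146) did not pass.

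The same windows are shown for *Kdr* and *Flt1*, whose mutant values were highest in replicate 1, and for *Vegfa*, with capitals for the same letters.
Kdr promoter, chr5:75978456-75978705, minus strand: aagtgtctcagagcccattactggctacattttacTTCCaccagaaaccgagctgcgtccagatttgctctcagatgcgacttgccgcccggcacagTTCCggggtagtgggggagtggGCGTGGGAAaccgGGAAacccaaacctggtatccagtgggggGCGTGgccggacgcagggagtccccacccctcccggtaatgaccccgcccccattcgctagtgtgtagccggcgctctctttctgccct
Flt1 promoter, chr5:147726012-147726261, minus strand: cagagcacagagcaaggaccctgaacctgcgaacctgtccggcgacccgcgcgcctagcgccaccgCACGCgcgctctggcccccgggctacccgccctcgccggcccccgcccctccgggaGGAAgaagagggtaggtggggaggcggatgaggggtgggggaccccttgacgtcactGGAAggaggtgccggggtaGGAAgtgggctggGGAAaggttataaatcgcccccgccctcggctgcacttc
Vegfa promoter, chr17:46032378-46032627, minus strand: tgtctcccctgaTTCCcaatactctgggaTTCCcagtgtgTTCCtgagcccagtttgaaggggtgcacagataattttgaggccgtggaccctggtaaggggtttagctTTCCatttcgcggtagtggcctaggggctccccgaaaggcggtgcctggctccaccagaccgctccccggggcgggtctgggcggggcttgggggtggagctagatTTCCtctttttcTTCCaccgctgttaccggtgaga
The hypoxia response core was found 2 times in the *Kdr* window, 131 and 89 bases before the start, and 1 time in the *Flt1* window, 184 bases before it. The *Vegfa* window shown held none. That of a further RefSeq start of *Vegfa* (chr17:46025164-46025413) held 2, but it lies inside the gene (chr17:46016993-46032369), downstream of the window shown. Of the windows not shown, *Vegfb*, lowest in replicate 1 among the mutant samples, held 2, and *Vegfc*, highest there, and *Flt4*, lowest there, held 0. The core is in 38.6% of all windows. GGAA matched 4 times for *Kdr*, 4 for *Flt1* and 6 for *Vegfa*.

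Without mutant replicate 1, edgeR called 5 of the 10 genes: *Angpt1*, *Tek*, *Kdr* and *Flt1* lower and *Vegfb* higher. In that fit 7.89% of all 14630 genes tested were called lower and 9.35% higher, or 17.2% in all, so the whole table, too, held more calls than with all 8 samples (8.62%).

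**Figure D3:**
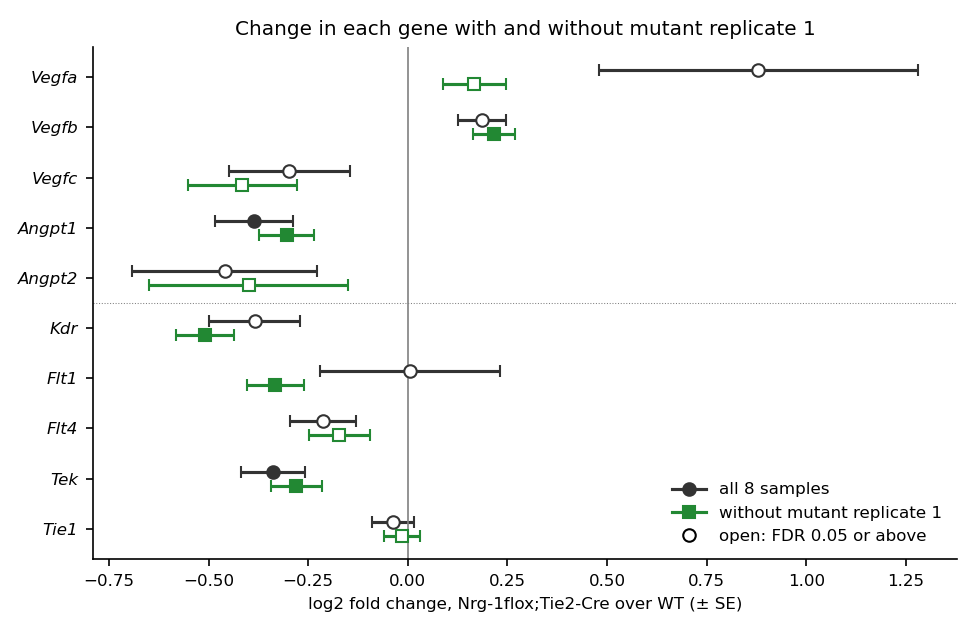
Points give the log2 fold change of Nrg-1flox;Tie2-Cre over WT with its SE, for ligands above the dotted line and receptors below it, from all 8 samples (black circles) and without mutant replicate 1 (green squares). Filled symbols passed an adjusted p of 0.05. *Angpt1* and *Tek* are filled in both fits, *Kdr*, *Flt1* and *Vegfb* in the second alone, and *Vegfa* moves from 0.88 to 0.17.

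Ratios of 2 genes within a sample do not depend on library scaling, and 6 such ratios were formed as descriptions, on the log2 scale of counts plus 2. *Angpt1* and *Tek* fell by similar amounts, and the log2 ratio of *Angpt1* to *Tek* was -0.07 ± 0.084 (SD, n = 4) in WT and -0.13 ± 0.11 (SD, n = 4) in the mutant, with overlap. *Angpt1* to *Angpt2* overlapped as well, at 5.10 ± 0.39 and 5.12 ± 0.079.

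The ratio of *Tek* to *Tie1* separated the groups. It was -0.11, -0.10, -0.25 and -0.29 in WT and -0.61, -0.34, -0.53 and -0.49 in the mutant, without overlap, a difference of -0.30. The ratio of *Vegfa* to *Kdr* was -0.81, -0.67, -0.55 and -0.69 in WT and 1.38, 0.013, 0.10 and -0.12 in the mutant, again without overlap. The difference was 1.02 with all samples and 0.68 without replicate 1. *Vegfa* to *Flt1* was 0.77, 0.63, 0.88 and 0.65 in WT and 2.02, 1.199, 1.304 and 1.199 in the mutant, a difference of 0.70, or 0.50 without replicate 1. Ligand stood higher against either receptor in all 4 mutant samples, not in replicate 1 alone. In mutant replicates 3 and 4, *Vegfa* (105.5 and 100.7 CPM) lay within the WT range, and *Kdr* and *Flt1* lay below their own WT ranges. How many pairs of genes in the whole table separate the groups was not computed. Among single genes tested, 19.0% did. *Kdr* to *Flt1* overlapped, with 1.41 ± 0.12 in WT and 1.09 ± 0.31 in the mutant, a difference of -0.32, or -0.17 without replicate 1.

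**Figure D4:**
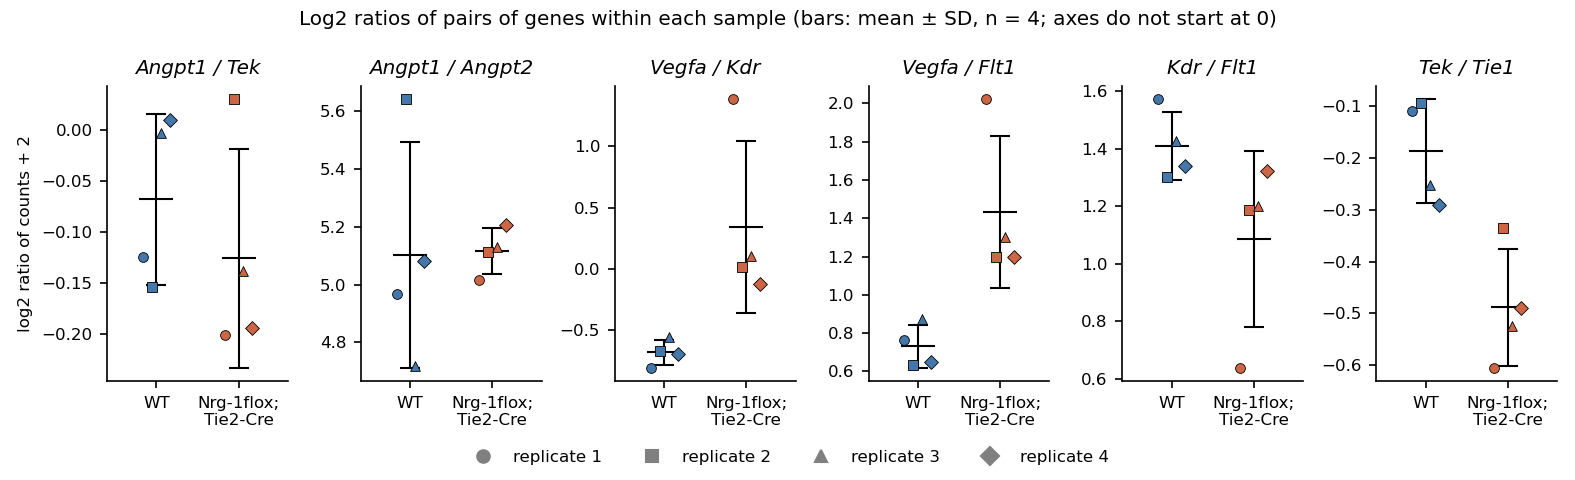
Each panel gives the log2 ratio of 2 genes within each sample (counts plus 2), for 4 WT samples in blue and 4 Nrg-1flox;Tie2-Cre samples in orange, with mean and SD as bars and axes that do not start at 0. The groups are apart for *Vegfa* to *Kdr*, *Vegfa* to *Flt1* and *Tek* to *Tie1*, and overlap in the other panels.

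Mutant replicate 1 was also the highest of all 8 samples for 12 of 13 hypoxia-inducible genes other than *Vegfa*. Relative to the WT mean, *Egln3*, an oxygen-sensing prolyl hydroxylase gene, was at 3.56 on the log2 scale in that sample and *Vegfa* at 2. In mutant replicates 2 to 4, *Egln3* was at 0.87, 0.57 and 0.53 and *Vegfa* at 0.31, 0.12 and 0.05. WT replicate 3 was at 0.58 for *Egln3* and 0.18 for *Vegfa*, so mutant replicates 3 and 4 lay within the WT range for both. Of the 13 genes, 1 was called higher, the glucose transporter gene *Slc2a1* (0.54, SE 0.11, edgeR adjusted p = 0.0133), at 0.84, 0.50, 0.41 and 0.36 over the WT mean in mutant replicates 1 to 4. It was lost without WT replicate 1 or 4 (adjusted p = 0.0548 and 0.052). *Egln3* joined it without replicate 1 (0.67, adjusted p = 0.0482). The median log2 fold change of the list was 0.59 with all samples and 0.086 without replicate 1. The part of low oxygen in the values of *Vegfa*, *Flt1* and *Kdr* was not tested.

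**Figure D5:**
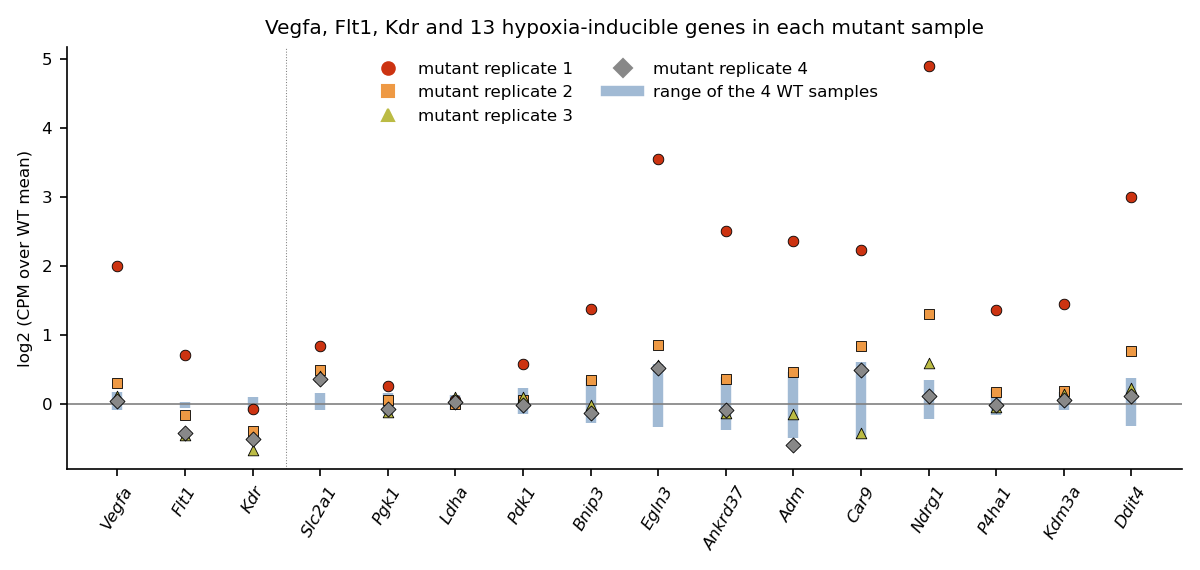
The vertical axis gives the log2 of CPM over the WT mean for *Vegfa*, *Flt1* and *Kdr*, left of the dotted line, and for 13 hypoxia-inducible genes, with a symbol per mutant sample and a blue bar for the range of the 4 WT samples. Mutant replicate 1 is the highest sample for 12 of the 13 genes and for *Vegfa*, at 2, and *Flt1*, at 0.71.

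Other genes of the VEGF and Tie pathways were examined as a list of 14, of which 12 were tested and 0 passed (edgeR; 2 at an unadjusted p under 0.05, 0 with DESeq2 and 0 with limma-voom). Their median log2 fold change was -0.0039, or -0.129 without mutant replicate 1. The VEGF co-receptors were *Nrp2*, at -0.32 (SE 0.11, edgeR adjusted p = 0.0969), and *Nrp1*, at 0.04 (SE 0.078, adjusted p = 0.793). *Nos3*, which encodes the endothelial nitric oxide synthase, had 58.76 to 60.95 CPM in WT and 34.25 to 51.93 CPM in the mutant. These ranges did not overlap, as for 9.45% of all genes tested with every mutant value lower. The log2 fold change of *Nos3* was -0.35 (SE 0.12, edgeR adjusted p = 0.0962). It passed only without mutant replicate 1, at -0.23 (adjusted p = 0.00672), in a fit that called 17.2% of genes. *Ptprb*, the phosphatase that restrains TEK, was at -0.05 (SE 0.11, adjusted p = 0.823) and *Pgf*, a further ligand of FLT1, at 0.15 (SE 0.25, adjusted p = 0.761). The remaining ligands were close to undetected, with 1 to 13 counts per sample for *Vegfd* and 1 to 5 for *Angpt4*, and were not tested.

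Of 10 genes that VEGF is known to induce in endothelial cells, 8 were tested and 1 was called, *Hlx*, a homeobox gene, at 2.30 (SE 0.60, edgeR adjusted p = 0.0421) with 4 to 11 counts in WT and 16 to 69 in the mutant. The call of *Hlx* was lost in 6 of 8 fits that left out 1 sample, and with the replicate block, limma-voom and cardiomyocyte marker scaling (adjusted p from 0.0521 to 0.122 where lost). Without mutant replicate 1 it was at 1.51 (adjusted p = 0.0198). Of the list, limma-voom called 0 and DESeq2 2, *Hlx* and the potassium channel subunit gene *Kcne3*. The other 7 did not pass with edgeR, and the median log2 fold change of the tested genes was 0.098 with all samples and -0.041 without mutant replicate 1. Of the 10, 7 were highest in mutant replicate 1.

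Markers of cell types were counted beside these results. Of 13 endothelial markers, 1 was called, *Sox17*, higher by a log2 fold change of 1.03 (SE 0.18, edgeR adjusted p = 0.00743), and the median was -0.07. Their summed level was 660.2 to 694.6 CPM in WT and 641.7 to 705.6 CPM in the mutant. Of 5 endocardial markers, 2 were called lower, *Tmem100* (-0.72, SE 0.12, adjusted p = 0.00555) and *Adgrg6* (-0.38, SE 0.095, adjusted p = 0.0357), the median was -0.31, and the sum was 361.3 to 402.1 CPM in WT and 259.1 to 347.3 CPM in the mutant, without overlap. *Adgrg6* lost its call with the replicate block and without WT replicate 1, 2 or 4 or mutant replicate 3 (adjusted p from 0.0768 to 0.115), and *Tmem100* kept it in each alternative. *Tek* and the endocardial sum were both lower in every mutant sample than in any WT sample, and lowest in mutant replicate 1. *Angpt1* showed the same, whereas *Kdr* was highest in replicate 1 among the mutant samples and *Tie1* overlapped between the groups. The endothelial sums of the groups overlapped, and the part of the endocardial share in the receptor values was not tested. When libraries were scaled to the endothelial markers, the log2 fold change was -0.38 for *Tek* (adjusted p = 0.0221) and -0.43 for *Angpt1* (adjusted p = 0.0226).

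Cardiomyocyte markers summed to 37190 to 39050 CPM in WT and 35250 to 37970 CPM in the mutant, with 0 of 12 called by edgeR (2 at an unadjusted p under 0.05, 0 by limma-voom and 2 by DESeq2). Without mutant replicate 1, 3 of them were called, *Actc1* (0.16) and *Nkx2-5* (0.22) higher and *Ttn* (-0.23) lower. Scaled to them, *Angpt1* was at -0.34 (adjusted p = 0.0357) and *Tek* at -0.29 (adjusted p = 0.0403), in a fit that called 1.58% of genes lower. Markers of blood cells were counted in 3 lists. All 11 erythroid markers were called, with a median of 2.44 and sums of 6702 to 8105 CPM in WT and 19860 to 68760 CPM in the mutant. Of 8 megakaryocyte markers, 2 were called higher, *Gp9* (1.57, SE 0.39, adjusted p = 0.0357) and *Itga2b* (1.15, SE 0.31, adjusted p = 0.0478), with a list median of 1.19, or 0.58 without mutant replicate 1. Both calls were lost in 6 of 8 fits that left out 1 sample, and with the replicate block, limma-voom and cardiomyocyte marker scaling (adjusted p from 0.0539 to 0.113 for *Gp9* and 0.0587 to 0.139 for *Itga2b*). Of 4 leukocyte markers tested, 1 was called higher, *Csf1r* (1.078, SE 0.18, adjusted p = 0.00657), and 3 had a positive log2 fold change. The sums of the 8 overlapped, at 19.15 to 24.75 CPM in WT and 19.56 to 25.3 CPM in the mutant. *Lyz2* (-0.31, edgeR adjusted p = 0.304) made up 60.5% of that level, so the sums mostly follow this gene. Blood cells and platelets can carry *Tek*, *Tie1*, *Flt1*, *Vegfa* and *Angpt1* transcripts, and their part in these values was not tested. Epicardial markers were higher for 2 of 9, *Wt1* (0.57, SE 0.11, adjusted p = 0.0126) and *Tbx18* (0.50, SE 0.12, adjusted p = 0.0315), the latter lost without any 1 WT replicate (adjusted p from 0.0588 to 0.0978). The log2 fold changes of all 9 were positive, with a median of 0.50 (0.51 without mutant replicate 1, where 3 were called, *Tcf21* in addition), and the sums were 144.3 to 222 CPM in WT and 221.1 to 368.7 CPM in the mutant, overlapping at the edge. Of 5 foregut and liver markers 0 passed edgeR's filter on low counts, and DESeq2, which tested more genes, called 1, *Afp* (3.25, adjusted p = 0.047, with 63, 32, 2 and 0 counts in the mutant and 1 to 4 in WT). They summed to 0.608 to 1.23 CPM in WT and 0.495 to 6.61 CPM in the mutant, highest in replicate 1. Of 6 neural and paraxial markers 2 were tested and 0 passed (0 at an unadjusted p under 0.05, and 0 with DESeq2 or limma-voom), with sums of 2.75 to 4.93 CPM and 1.02 to 3.96 CPM.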

How the data were processed

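RNA-seq of polyadenylated RNA, as 60-base single reads, was available for 8 samples of E9.5 ventricles. The deposited values are RSEM expected counts per gene. Per the labels, the authors used cutadapt and RSEM 1.3.1 on GRCm38. The name of the deposited table gives Ensembl release 91 as its annotation. The aligner and the use of strand are not given in the sources used here. The authors' expected counts are not scaled for library size or length, and 16% of values were not whole. They were rounded. A symbol was found for 53274 of 53465 gene IDs. Gene models came from GENCODE M21 (GRCm38).

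Genotypes were compared with edgeR 4.0.16 in R 4.3.3 (TMM, filterByExpr, quasi-likelihood test, Benjamini-Hochberg adjustment over 14451 genes, threshold 0.05). The SE was taken as log2 fold change over root F, and 95% intervals are unadjusted. DESeq2 1.42.0, limma 3.58.1 and other scalings and filters were alternatives. The pipeline was tested on simulated data. The labels name replicates 1 to 4 and no separate animals, so p-values measure the spread between these samples. No pair of replicates was alike within sampling noise (lowest chi-square per degree of freedom 3.59). The members and lists were chosen with earlier results of these data known. Named genes are the 10 members, pathway genes, and up to 4 genes a list with the largest change past the threshold, plus the 5 nearest in pattern to *Angpt1* and to *Vegfa*.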

Additional observations from a re-analysis of the deposited data

Results flagged for a closer look

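In 7 of 56 groups of 4 values tested, 1 sample lay far from the other 3, where chance gives about 1 in 20, and in each of the 7 that sample was mutant replicate 1. Divided by the range of the group, its distance to the closest other sample came to 0.868 for *Vegfa* (log2 CPM), 0.85 for the log2 ratio of *Vegfa* to *Kdr* and 0.872 for that of *Vegfa* to *Flt1*, each highest in replicate 1. Among the summed levels of lists, it was 0.832 for genes induced by VEGF, 0.833 for hypoxia-inducible genes and 0.92 for megakaryocyte markers, again highest there, and 0.831 for cardiomyocyte markers, lowest there. The values are not independent of each other.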

How the results depend on the processing

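*Angpt1* and *Tek* kept their negative sign in all 18 alternatives and passed with each other test, scaling and filter apart from the replicate number as a block. Same-numbered samples did not deviate together (correlations of -0.0911 to 0.0187 across genes), so the numbers were not read as pairs. With the replicate block, *Angpt1* was at -0.40 (adjusted p = 0.0744) and *Tek* at -0.34 (adjusted p = 0.0832), 0 of the 10 genes were called, 0 of them lower (edgeR, 4 at an unadjusted p under 0.05), and 616 genes in all, 398 higher and 218 lower. *Vegfb* passed with cardiomyocyte marker scaling (0.24, adjusted p = 0.0498), where 608 genes were called higher and 228 lower. *Kdr* passed with endothelial marker scaling (-0.43), without the low-count filter (-0.39) and with DESeq2 (-0.38).

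*Flt1*, close to 0, turned negative with upper-quartile scaling (-0.015), endothelial marker scaling (-0.041), the block (-0.074) and limma-voom (-0.084), and *Tie1* turned positive with cardiomyocyte marker scaling (0.020). *Nrp1* turned to -0.0023 with endothelial and *Ptprb* to 0.021 with cardiomyocyte marker scaling. None of these 4 genes passed in these settings.

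When each sample was left out in turn, from 0 to 5 of the 10 genes were called, from 0 to 4 of them lower, and from 509 to 2523 genes in all, 335 to 1368 higher and 174 to 1155 lower. Ranges of the log2 fold change were -0.47 to -0.30 for *Angpt1*, -0.37 to -0.28 for *Tek*, -0.51 to -0.30 for *Kdr*, 0.165 to 0.226 for *Vegfb*, -0.33 to 0.13 for *Flt1*. The sign turned, without passing, for *Nrp1* (-0.021 to 0.082), *Ptprb* (-0.17 to 0.020) and *Pgf* (-0.14 to 0.26). The highest counts were without mutant replicate 1, and 0 of the 10 genes were called without any 1 WT replicate or mutant replicate 3 or 4 (4 to 6 at an unadjusted p under 0.05). The cause was not tested. Counts of *Angpt2*, *Vegfd* and *Angpt4* limit what could be seen for them.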

Other observations

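The 5 tested genes nearest to *Angpt1* over the 8 samples, by the mean absolute difference of log2 CPM centred on each gene's mean, were *Fam102b* (0.0263), *Dnal1* (0.0471), *Cemip2* (0.048), *Bves* (0.0485) and *Mmd* (0.0522). The mean absolute deviation of *Angpt1* itself was 0.217. *Cemip2* encodes a hyaluronan-degrading membrane protein and *Bves* a membrane protein of cardiomyocytes. The log2 fold changes of the 5 were -0.47 to -0.305. They were chosen for following *Angpt1* over these samples, which fixes the direction, so they are given as a description with no test.

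The 5 nearest to *Vegfa* were *Fosl2* (0.0694), *Ero1l* (0.0849), *Pfkfb3* (0.0929), *Kdm7a* (0.0939) and *Abhd18* (0.1), beside a mean absolute deviation of 0.423 for *Vegfa*. *Ero1l* encodes an oxidase of protein folding and *Pfkfb3* an activator of glycolysis. Their log2 fold changes were 0.64 to 0.94, again as a description of genes chosen for their pattern. Nearness over 8 samples, of which 1 stands apart, is a description of these libraries.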
